A study of Glycine max and Zea mays with 6 samples.

Results

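The NAC transcription factor genes of soybean (Glycine max) were examined for 3 histone marks in leaf. Members were the protein-coding genes on chromosomes 1 to 20 whose symbol begins with NAC and a number in the RefSeq gene table of the assembly Glycine_max_v4.0. The rule found 41 genes among 46816 protein-coding genes. The marks came from chromatin immunoprecipitation with sequencing (ChIP-seq) of untreated William82 leaves, the second and the third leaf of plants about 10 days old. The marks, with 1 library each, were H3K4me3 and H3K36me3, the trimethylated forms of lysines 4 and 36 of histone H3, and H3K56ac, its form acetylated at lysine 56. For the first of these the sources differ: the sample's title and antibody say H3K4me3, which is used here, and the series' design text lists H3K4me1 in its place. The series also holds a soybean input and 2 maize ear samples, which were not analysed here. Whether leaves of several plants were pooled is not stated in the labels.

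NAC proteins are a family of plant transcription factors that bind DNA through a conserved domain at their amino terminus, the NAC domain, and regulate target genes through a variable carboxyl-terminal part. In plants the family is known for roles in drought and salt responses, leaf senescence, programmed cell death, secondary wall formation, and root and shoot development. H3K4me3 is known to lie at the start of transcribed genes and H3K36me3 along their bodies, and acetylation of H3 is a feature of open chromatin.

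The deposited lists give peak positions alone, without a score, so the read depth is unknown. A mark is therefore called or not called at a gene, and a gene without a call may still carry signal below the authors' threshold. A peak of H3K4me3 or H3K56ac within 1 kb of either end counted as a call, and for H3K36me3 a region inside the gene did, each with an overlap of at least 1 bp. The gene table has no strand, so it is unknown which end of a gene is its start. Shares carry exact (Clopper-Pearson) 95% intervals over genes, which cover counting error alone, and members of a family are not independent of each other. There was no replicate and hence no test between samples. In bulk leaf, a mark in few cells and a weak mark in many cells cannot be told apart.

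The labelled tissue was checked with genes of known leaf, seed and nodule use. RBCS1 (Rubisco small subunit) and RCABETA (Rubisco activase) carried all 3 marks, as did LOC100805310, matched through its synonym CAB3. The chlorophyll-binding protein gene with the symbol CAB3 carried H3K4me3 and H3K56ac. The leghemoglobin genes LB2, LB3 and LB4, matched through synonyms, carried none. Of the glycinin genes, GY2 was called for H3K4me3, while GY1 and GY3 had 246 bp and 678 bp of H3K4me3 outside the windows counted.

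NAC genes ranged from fully marked to unmarked, and the unmarked ones formed the largest class. All 3 marks were called at 11 of the 41 genes (26.8%, interval 14.2 to 42.9), where 49.3% of all protein-coding genes had all 3. No mark was called at 18 genes (43.9%, interval 28.5 to 60.3), where the share over all protein-coding genes was 22.2%. H3K4me3 was called at 21 genes (51.2%, interval 35.1 to 67.1; 73.1% of all genes) and H3K56ac at 20 (48.8%, interval 32.9 to 64.9; 69.5% of all genes). H3K36me3 was called at 11 (26.8%, interval 14.2 to 42.9; 51.1% of all genes). Each of these 5 shares over all genes lay outside the interval of the NAC share. This did not hold for the genes with a known protein record in RefSeq, taken apart below. Among these, each of the 5 shares over all genes lay inside the NAC interval. Every NAC gene with H3K36me3 also had both other marks, so these 2 counts rest on the same 11 genes. Of the 23935 protein-coding genes with H3K36me3, 23074 had both other marks, so this does not set NAC genes apart. No NAC gene had H3K36me3 alone, with H3K4me3 alone or with H3K56ac alone, classes that held 0.758%, 0.748% and 0.333% of all genes. A further 7 genes had H3K4me3 and H3K56ac without H3K36me3 (16.3% of all genes), 3 had H3K4me3 alone (6.76% of all genes) and 2 had H3K56ac alone (3.61% of all genes). With the longer 50% of each list, all 3 marks were left at 2 genes, since the H3K36me3 regions at NAC genes were 1200 to 4000 bp long and the median of that list is 2400 bp.

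Other series of transcription factor symbols gave other patterns by the same rules. Among 61 WRKY genes all 3 marks were called at 27.9% (interval 17.1 to 40.8), close to the NAC value, but no mark at 14.8% (interval 6.98 to 26.2). Among 77 bZIP genes these shares were 63.6% and 9.09%, and among 70 MYB genes 41.4% and 25.7%. The intervals of the unmarked share did not overlap between NAC and WRKY or between NAC and bZIP, and they overlapped between NAC and MYB. No test of these differences was made.

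**Figure D1:**
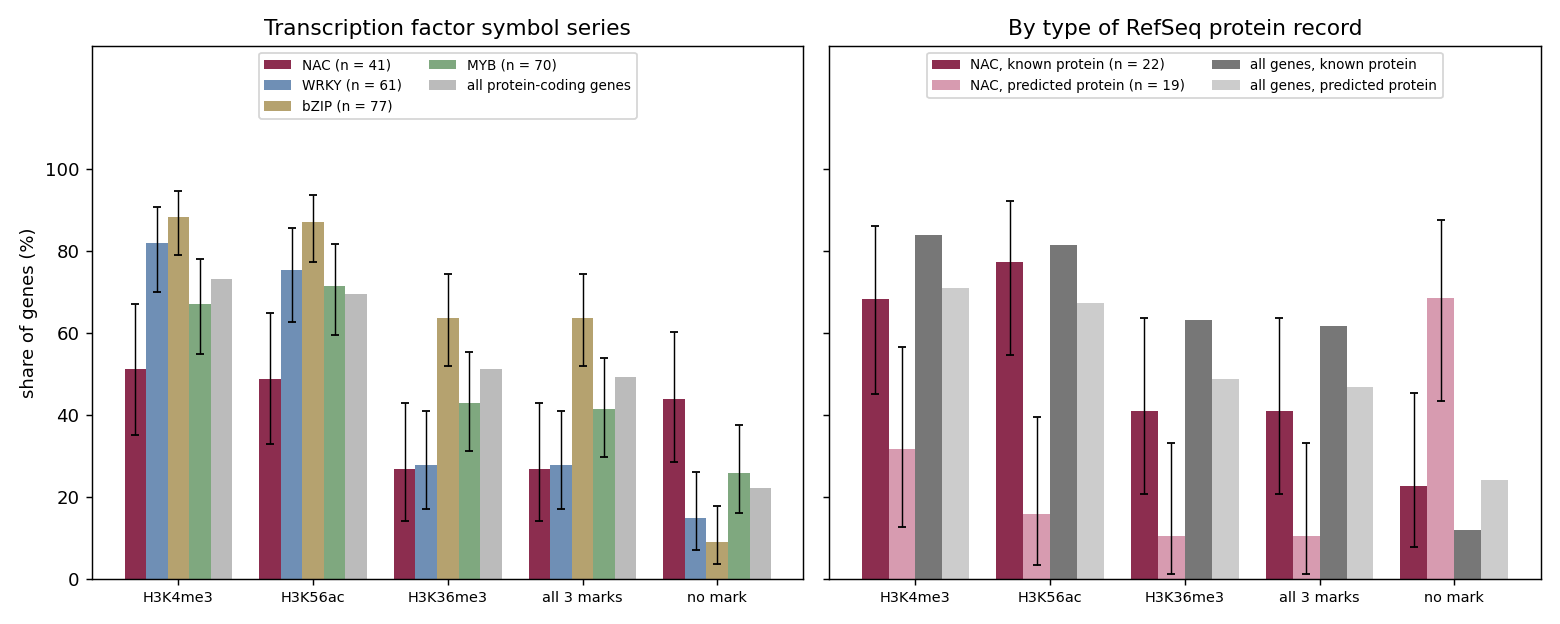
Share of genes (%, vertical axis) with each mark called, with all 3 and with none, for the NAC, WRKY, bZIP and MYB symbol series and all protein-coding genes (left), and for NAC genes and all protein-coding genes by the type of their RefSeq protein record (right). Error bars are exact 95% binomial intervals over genes; the unmarked share was 43.9% for NAC and 22.2% for all genes, and 68.4% for NAC genes with a predicted protein record alone.

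The 11 genes with all 3 marks were NAC2, NAC11, NAC12, NAC15, NAC018, NAC19, NAC021, NAC022, NAC22, NAC170 and NAC177. They include several genes studied for stress responses. NAC2, which made tobacco more sensitive to abiotic stress when overexpressed, had 2001 bp of H3K4me3, 1987 bp of H3K56ac and 1750 bp of H3K36me3. Its H3K4me3 peak ran on chromosome 6 from 9211897 to 9213897, in the coordinates of the deposited list, for which the sources used here name no build. The peak spanned 95.8% of the gene, and 6.92% of all genes with H3K4me3 had a longer covered length. NAC11, also listed as GmNAC181 and known for a role in nodulation and salt tolerance, had 1426 bp of H3K4me3, 1805 bp of H3K56ac and 1777 bp of H3K36me3. H3K36me3 covered 73.6% of this gene of 2413 bp.

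NAC19, whose synonyms include NAC20, a name studied for salt and freezing tolerance in transgenic Arabidopsis, was covered along its whole length of 1540 bp by all 3 marks. Its H3K4me3 peak lay on chromosome 13 from 9200236 to 9202135, its H3K56ac peak from 9200236 to 9202121, and its H3K36me3 region from 9200201 to 9202000. The start was thus the same base for both narrow marks. NAC15, also listed as GmNAC065 and studied in drought and leaf senescence, was the shortest of the 11 at 1182 bp. It had H3K4me3 in 2 peaks of 1053 bp and 585 bp and H3K56ac in 2 peaks of 1340 bp and 987 bp. Only a stretch between these peaks was free of both, and H3K4me3 covered 71.9% of the gene and H3K56ac 71.8%. H3K36me3 covered 98.0% of it. NAC018, known for a role in nodule senescence, had 1450 bp of H3K4me3, 907 bp of H3K56ac and 883 bp of H3K36me3, the last over 47.7% of the gene. Another gene lies 189 bp from it.

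Among the other fully marked genes the balance between the marks varied. NAC22, of 3355 bp, had the longest H3K36me3, a region of 4000 bp on chromosome 2 from 42823601 to 42827600 that covered the whole gene, beside 1223 bp of H3K4me3 and 956 bp of H3K56ac. NAC021 had 3105 bp of H3K36me3 (90.5% of the gene), 1627 bp of H3K4me3 and 2759 bp of H3K56ac, the longest H3K56ac of the family. Part of both narrow marks came from peaks that overlapped a gene 688 bp away: 1672 bp of the H3K56ac from a peak of 2604 bp, and 426 bp of the H3K4me3 from a peak of 1383 bp that lay outside NAC021. NAC022 had 1823 bp of H3K4me3, 2019 bp of H3K56ac and 1600 bp of H3K36me3. It overlaps another annotated gene, and the marks of the pair cannot be told apart.

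NAC12 had 1321 bp of H3K4me3, 1380 bp of H3K56ac and 88.4% of its length under H3K36me3. NAC177 had 1717 bp of H3K4me3, 1784 bp of H3K56ac and 96.5% under H3K36me3. NAC170, the longest of the 11 at 4265 bp, had the shortest narrow marks of the group. H3K4me3 covered 752 bp and H3K56ac 700 bp, and 44.2% of the gene was under H3K36me3. It and NAC177 were the 2 fully marked genes whose protein record in RefSeq is a prediction.

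Fully marked NAC genes were short, and in most of them the marks covered much of the length. Their median length was 2015 bp, where genes with all 3 marks in the whole genome had a median of 4385 bp. Their median covered lengths were 1627 bp of H3K4me3 and 1805 bp of H3K56ac, beside 1227 bp and 1152 bp in all genes with the 3 marks. Without the H3K4me3 peak at NAC021 that lay at its neighbour, the NAC median of H3K4me3 was 1450 bp. For H3K36me3 the order was the other way, with a median of 1777 bp in these NAC genes and 2800 bp in all genes with the 3 marks. As a share of the gene, H3K4me3 covered a median 71.9% of these NAC genes (17.6 to 100) and 24.2% of all genes with the 3 marks. For H3K36me3 the medians were 90.5% (44.2 to 100) and 73.3%. The lowest share of both marks was at NAC170. A short gene needs a shorter region for the same share. Covered lengths were not compared with genes of like length, and no test of these medians was made.

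**Figure D2:**
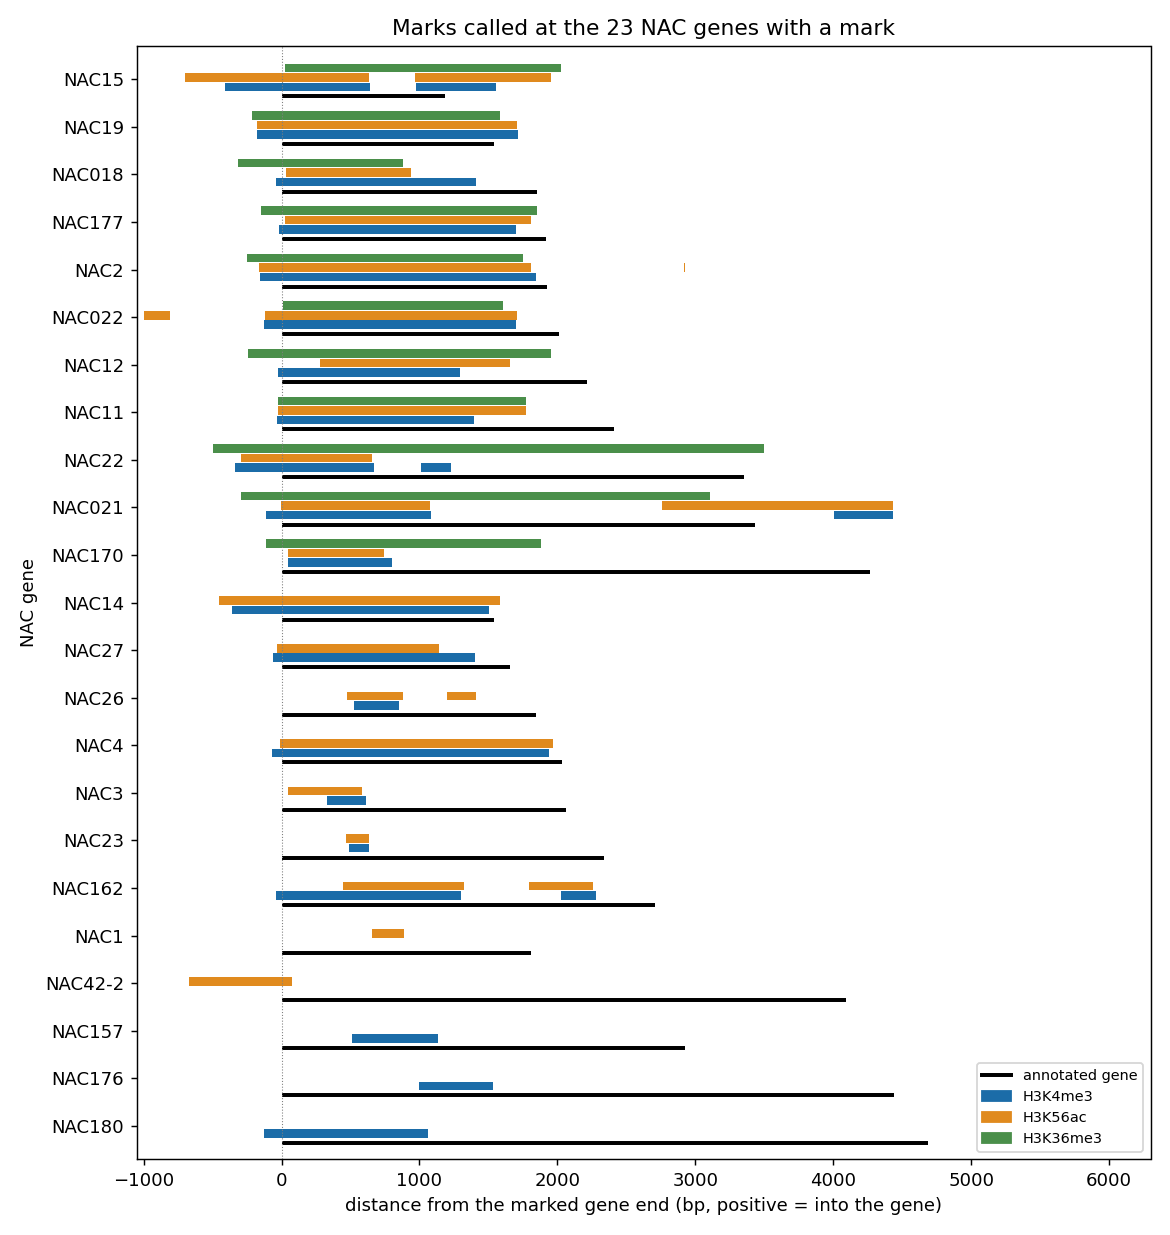
Peaks and regions of each mark (coloured bars) at the 23 NAC genes with a mark, drawn to scale against the annotated gene (black line). The horizontal axis is the distance in bp from the gene end with more H3K4me3 (within 500 bp, or within 1 kb where these are equal) or, without it, H3K56ac; bars are cut 1000 bp outside the gene. The narrow marks begin close to that end in most genes, and the upper 11 genes have H3K36me3 as well.

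The 7 genes with H3K4me3 and H3K56ac but no H3K36me3 fell into 4 with long and 3 with short narrow marks. NAC4, induced by osmotic stress, had the longest H3K4me3 of the family, a single peak of 2009 bp on chromosome 12 from 39521987 to 39523995, with 1983 bp of H3K56ac. These covered 95.6% and 97.0% of its 2030 bp. NAC14 had 1862 bp of H3K4me3 and 2034 bp of H3K56ac. NAC27, also listed as SIN1 and known for promoting root growth under salt, had 1468 bp and 1174 bp, and NAC162 had 1598 bp and 1347 bp in 2 peaks each. In covered H3K4me3 these 4 lay within the range of the fully marked genes or, for NAC4, just above it.

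NAC3, like NAC4 known as a gene induced by osmotic stress, had 287 bp of H3K4me3 and 537 bp of H3K56ac, both within 615 bp of its marked end. Of all genes with H3K4me3, 94.7% had more covered than NAC3 and 6.76% more than NAC4. NAC26 had 326 bp and 618 bp of these marks inside the gene. NAC23 had 148 bp and 169 bp, the shortest of the family, and 99.3% of all genes with H3K4me3 had more. The nearest H3K36me3 region lay at 8.84 kb from NAC162, the closest of these 7 genes, and at 100.9 kb from NAC3, the farthest.

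A single mark was called at 5 genes. H3K4me3 alone was found at NAC180 (1191 bp), NAC157 (630 bp) and NAC176 (533 bp). At NAC180 the peak began 128 bp outside a gene end. At NAC157 and NAC176 it lay inside the gene, 509 bp and 999 bp from the nearer end, and NAC176 was counted through 2 bp of that peak. H3K56ac alone was found at NAC1, whose transient expression is known to cause cell death in tobacco leaves, with 233 bp inside the gene. It was also found at NAC42-2, with a peak of 747 bp that lay mostly outside the gene and covered 1.93% of it. Another gene lies 1254 bp from NAC42-2 and the peak was within 1 kb of its end.

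The 18 genes without a call were NAC5, NAC6, NAC34, NAC35, NAC42-1, NAC51, NAC153, NAC155, NAC160, NAC163, NAC165, NAC166, NAC167, NAC171, NAC172, NAC173, NAC175 and NAC182. NAC5 and NAC6 are, like NAC1, known to cause cell death and senescence when expressed in tobacco leaves, and NAC6 acts in a cell death pathway of osmotic and endoplasmic reticulum stress. NAC42-1 activates the synthesis of glyceollins, the defence compounds of soybean. All 3 had 0 bp of every mark, from 1 kb before to 1 kb after the gene for the narrow marks. The nearest H3K4me3 peak was 8.54 kb from NAC5, 6.01 kb from NAC6 and 5.43 kb from NAC42-1.

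Of the 18, NAC172 had a peak away from its ends: 798 bp of H3K56ac on chromosome 12 from 19198860 to 19199657, 12336 bp into a gene of 32835 bp. The others had no base of a narrow mark in the gene or within 1 kb of it, and none of H3K36me3 in the gene. An H3K4me3 peak lay within 10 kb of 11 of the 18. The same count was not made over all unmarked protein-coding genes, so it does not set these genes apart. NAC175 came closest to the limit used, with H3K4me3 at 1.72 kb and H3K36me3 at 0.973 kb. The farthest were NAC167, at 120 kb from H3K4me3, and NAC173, at 73.1 kb, which are also the shortest members with 543 bp and 479 bp.

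**Figure D3:**
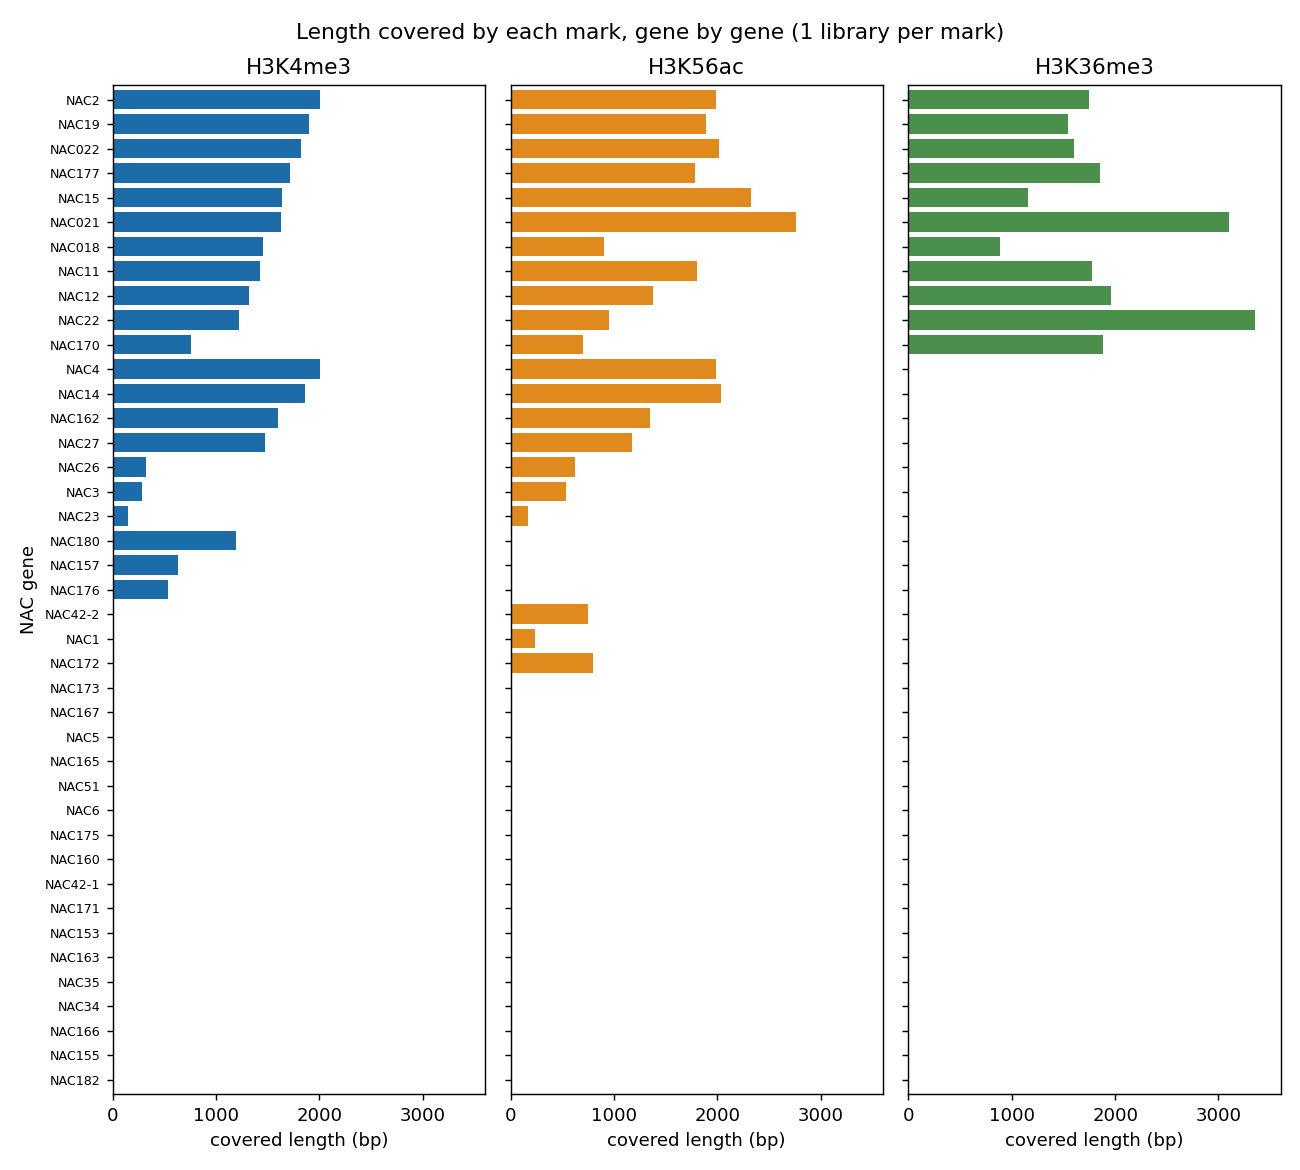
Length covered by H3K4me3 and H3K56ac (bp, from 1 kb before to 1 kb after the gene) and by H3K36me3 (bp, in the gene) for each of the 41 NAC genes, 1 library per mark. Rows run from genes with all 3 marks to genes with none; the H3K56ac of NAC172 lies away from the gene ends and was not counted as a call.

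Unmarked NAC genes had a longer median than fully marked ones, the opposite order to the genome as a whole. The 18 unmarked NAC genes had a median length of 3454.5 bp (479 to 32835) and the 11 fully marked ones 2015 bp (1182 to 4265), so the ranges overlapped. The 2 shortest members, NAC173 and NAC167, were unmarked, and the 3 genes with H3K4me3 alone had the longest median of the classes, 4441 bp (2923 to 4686). In all protein-coding genes the medians were 1835.5 bp without a mark and 4385 bp with all 3. Among the 12275 protein-coding genes between the quartiles of NAC gene length, 1920 to 3521 bp, all 3 marks were called at 47.2% and none at 20.3%. The NAC shares of 26.8% and 43.9% are over members of all lengths, so the 2 sets are not matched in length. The order of medians within the family rests on 1 library per mark and was not tested.

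**Figure D4:**
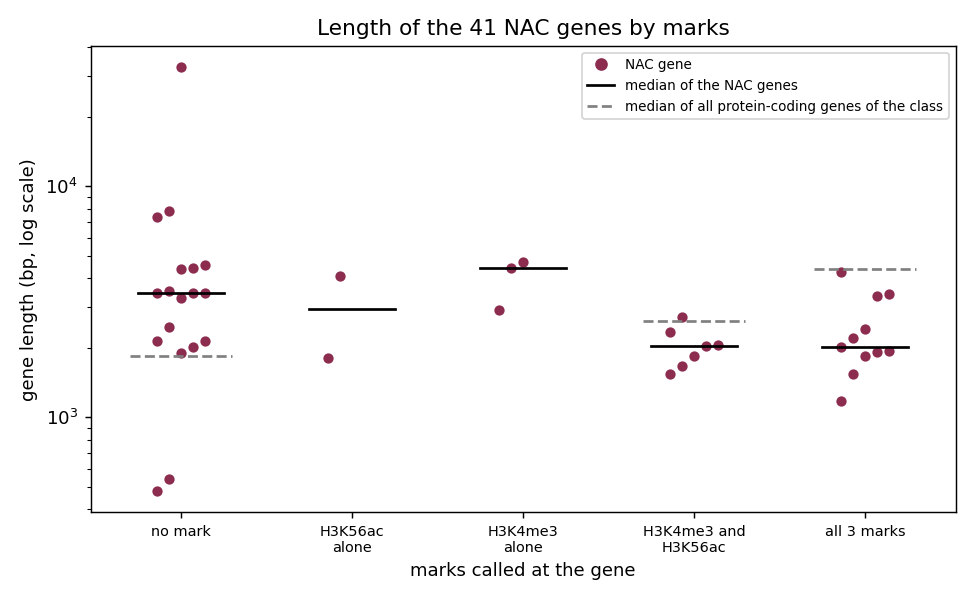
Gene length (bp, log scale) of the 41 NAC genes by the marks called, with the median of the NAC genes (black line) and, for 3 classes, the median of all protein-coding genes of that class (grey dashes). The unmarked NAC genes have a median of 3454.5 bp and the fully marked ones 2015 bp, while the genome-wide medians run the other way.

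The marks of NAC genes also differed with the kind of record that the gene has. RefSeq gives 22 NAC genes a known protein record, and for 19 the only protein record is a predicted one. All 3 marks were called at 9 of the 22 (40.9%, interval 20.7 to 63.6) and at 2 of the 19 (10.5%, interval 1.30 to 33.1). No mark was called at 5 of the 22 (22.7%, interval 7.82 to 45.4) and at 13 of the 19 (68.4%, interval 43.4 to 87.4), and these intervals overlapped narrowly. H3K4me3 was called at 15 of the 22 and 6 of the 19, H3K56ac at 17 and 3, and H3K36me3 at 9 and 2. Over all protein-coding genes these marks were called at 83.8%, 81.5% and 63.2% of those with a known protein and at 71%, 67.2% and 48.8% of those with a predicted one. No mark was called at 11.8% of 7654 genes with a known protein and 24.2% of 39162 with a predicted one. All 3 marks were called at 61.8% and 46.8% of these. For genes with a known protein, all of these shares lay inside the interval of the NAC share. For genes with a predicted protein alone, all of them lay outside it. The 5 unmarked NAC genes with a known protein were NAC5, NAC6, NAC34, NAC35 and NAC51. The median length was 2045 bp for NAC genes with a known protein and 3461 bp for the others, so length and record moved together, and their parts in the result were not tested.

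Most genes around unmarked members carried a mark, as did most genes overall. Up to 10 protein-coding genes on either side of each member were taken. H3K4me3 was called at 247 of 360 such neighbours of unmarked members (68.6%) and at 338 of 457 neighbours of marked ones (74.0%), beside 73.1% of all protein-coding genes. H3K36me3 was called at 47.8% and 52.3%, beside 51.1% of all, and no mark at 28.9% and 21.9%, beside 22.2%. Some unmarked members did lie in sparsely marked surroundings: of 20 neighbours, 14 were unmarked at NAC160, 12 at NAC172, 11 at NAC173 and 10 at NAC167. So did some marked members, with 13 of 20 neighbours unmarked at NAC3, 11 at NAC1 and 10 at NAC19, which had all 3 marks. At the unmarked NAC42-1 the count of unmarked neighbours was 1 of 20 and at NAC34 and NAC171 2. Between 40% and 60% of the length of their chromosome lay NAC160, NAC172 and, among marked genes, NAC176.

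Another annotated gene lay within 2 kb of 8 members. Without these 8, all 3 marks were called at 8 of 33 (24.2%) and none at 14 of 33 (42.4%). Over all protein-coding genes, with or without such a neighbour, the shares were 49.3% and 22.2%. Shares over genes with no other gene within 2 kb were not computed.

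In NAC genes with both narrow marks, the edges of H3K4me3 and H3K56ac mostly lay close together. In each of the 21 genes with H3K4me3, the peak with most bases in the gene was taken and measured from the end with more H3K4me3. Genes were called through a peak within 1 kb of an end, so closeness to that end is partly set by the call. The outer edge lay outside the gene in 15 (71.4%) and within 200 bp of the gene end in 13 (61.9%), with a median of 39 bp outside. Over the 33374 protein-coding genes called for H3K4me3 with a peak in the gene, these shares were 60.9% and 69.8%. The inner edge lay a median 1302 bp from the same end of the NAC gene (615 to 1939), at NAC19 past its other end. In 18 genes an H3K56ac peak overlapped the H3K4me3 peak. There the outer edges of the marks were a median 47.5 bp apart (0 to 482) and the inner edges 31 bp (0 to 476). Of 25 H3K4me3 peaks at NAC genes 21 overlapped H3K56ac (84.0%), beside 82.4% of the whole list.

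H3K36me3 began near the same outer edge, and its reach into the gene varied. Each of the 11 genes with it had a single region. Its outer edge was a median 160 bp (10 to 437) from that of H3K4me3, with region edges on a grid of 200 bp. Its inner edge lay farther from the marked end than that of the H3K4me3 peak measured in 7 of the 11, by 153 to 2832 bp. At NAC15 and NAC22, among these, the region ran past the other gene end, and a second H3K4me3 peak was not measured. The region stopped short of the H3K4me3 edge in NAC018, NAC022, NAC19 and NAC2, by 90 to 530 bp. At NAC19 both inner edges lay past the other gene end. In 8 of the 11 the 50% of the gene next to the marked end was covered more than the other 50%. The median coverage was 100% on the near side (88.4 to 100) and 81.0% on the far side (0 to 100). At NAC170 the far side had 0%. These edges and sides were not measured over all genes with H3K36me3, so they are not known to be particular to NAC genes.

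Among the 29 NAC genes of at least 2 kb, 8 had H3K4me3 within 500 bp of 1 end alone and 3 had it at both ends. For H3K56ac the counts were 7 and 4. NAC3, NAC11, NAC12, NAC22, NAC23 and NAC170 had each narrow mark at 1 end, and in 6 of 6 the marks shared that end. These counts were not made over all protein-coding genes, so they do not set NAC genes apart. In the whole list 82.4% of H3K4me3 peaks overlapped H3K56ac.

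A list of 28 names was written from textbook knowledge of genes upstream or downstream of NAC factors in drought, osmotic stress and cell death. Of these names 14 were matched, to 16 genes. Whether these genes act with the NAC genes counted here was not tested. All 3 marks were called at 8 of the 16, a share near the 49.3% of all protein-coding genes. No gene of the 16 was without a mark, where 22.2% of all protein-coding genes were. NRP-B, an asparagine-rich protein gene of the cell death pathway in which NAC6 acts, had 1959 bp of H3K4me3, 3009 bp of H3K56ac and 58.4% of its length under H3K36me3. Its relative NRP-A had 1680 bp and 1332 bp of the narrow marks and no H3K36me3. Of the vacuolar processing enzyme genes, proteases of plant cell death, VPE2 had all 3 marks with 75.3% of its length under H3K36me3, and VPE had 266 bp of H3K4me3 alone. ERD15, a dehydration-response gene that regulates NRP-B, was covered by H3K36me3 along its whole 817 bp. The chaperone genes BIP2 and BIP4 and P5CS, of proline synthesis, had all 3 marks, with 39.7%, 35.3% and 83.6% under H3K36me3. RD22, a dehydration-response gene, had 474 bp of H3K4me3 alone. Of the DREB names, transcription factors of drought and cold responses, DREB3 had all 3 marks and 83.0% of its length under H3K36me3. DREB1, DREB5 and the 2 genes with the synonym DREB2 had H3K4me3 and H3K56ac, and DREB1-like had 847 bp of H3K4me3 alone. BZIP1, listed also as AREB1 and a factor of abscisic acid responses, had all 3 marks. The 16 genes were chosen by known roles, so their counts stand beside those of the NAC genes without a test of the difference.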

How the data were processed

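ChIP-seq was done on soybean leaf fixed with 1% formaldehyde, per the labels' protocols. The deposited values are positions in bp, 1 list per library. Per the submitters' processing notes the tools were MACS2, SICER, Picard, Bowtie2 and Trimmomatic, without versions or roles. The caller, threshold and build of the soybean lists are unstated there.

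H3K36me3 regions were lengthened by 1 bp, since that list ends them on the last base counted from 0, and coordinates are printed from 1. In the 5 Mb around each of the 41 members, H3K4me3 midpoints fell within 500 bp of a gene end more often than after shifts by 20 kb and 100 kb in both directions (41 of 41, 17.9% to 46.9%). On this ground the lists were overlapped with the Glycine_max_v4.0 table, whose own coordinates are not printed. Overlaps were computed in Python 3.11.15 with numpy 2.4.6 and pandas 2.3.3 and tested on simulated data.

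The members and lists were chosen with earlier results of these data known. Named were all members, by class, with values for those the rule lists. Planned comparisons by strand, protein sequence and promoter motif were not run, since the sources used here hold none of these.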

Additional observations from a re-analysis of the deposited data

How the results depend on the processing

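With 1 library per mark no replicate could be left out. No paired analysis was possible because each mark has 1 library. The 7 alternatives were windows of 500 bp, windows of 2 kb, narrow marks anywhere in or beside the gene, the longer 50% of each list, an overlap of at least 200 bp, H3K36me3 over at least 50% of the gene, and members with no other gene within 2 kb. An eighth, adding genes with a NAC synonym, was chosen after seeing the data. With the longer 50% of each list, genes with H3K36me3 fell to 2 and genes with all 3 marks to 2, where 30.6% and 23.1% of all protein-coding genes were left. All other counts of the 5 main ones stayed within 1.5 times: H3K4me3 at 15 to 26 genes, H3K56ac at 15 to 27, H3K36me3 and all 3 marks at 8 to 14 each, and no mark at 14 to 25. In each of them the unmarked share of NAC genes was above that of all protein-coding genes. For members with no other gene within 2 kb, the share compared was over all genes, with or without such a neighbour. Over the first 6 alternatives 24 of 41 members kept their number of marks. Those among them with a mark were NAC4, NAC14, NAC021, NAC22, NAC27, NAC42-2, NAC162 and NAC180, and the others were unmarked. Most marked members thus changed in at least 1 alternative. The longer 50% changed 15 members, and windows of 500 bp changed NAC1, NAC26, NAC157 and NAC176. With windows of 2 kb, H3K4me3 was at a single end of 5 genes and H3K56ac of 3. Depth is unknown, so what a missing call hides cannot be given.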

Other observations

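The gene table holds 8 further genes that carry a NAC name as a synonym and lie outside the rule. They were added after the data were seen. All 3 marks were called at 3 of the 8 and none at 1, where 49.3% and 22.2% of all protein-coding genes had all 3 and none. LOC100170714 (GmNAC109) had 1959 bp of H3K4me3, 1870 bp of H3K56ac and 95.4% of its length under H3K36me3. LOC100500255 (GmNAC174) had 86.9% under H3K36me3 and LOC100814504 (NAC69) 47.7%. LOC100811301 (GmNAC085), a gene studied for drought tolerance, had 1016 bp of H3K4me3 and 1206 bp of H3K56ac without H3K36me3, and LOC100170751 (NAC32) had 724 bp and 818 bp. LOC100816770 (NAC55) and LOC100817074 (NAC8) had H3K56ac alone, over 570 bp and 305 bp, and LOC100170711 (GmNAC019) had no mark. With them the count of unmarked genes was 19 of 49 (38.8%), beside 22.2% of all protein-coding genes.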
